A study of Mus musculus with 12 samples.

Results

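The genes described here are 9 transcripts that mark microglia, the resident immune cells of the brain: Cx3cr1, P2ry12, Csf1r, Tmem119, C1qa, C1qb, C1qc, Trem2 and Aif1. They were taken by symbol from a count table of 52638 entries, and each of the 9 symbols matched 1 entry. The counts come from the hypothalamus of adult mice, in which ribosomes of leptin receptor (LepRb) cells carry a green fluorescent tag and can be pulled down on beads. All mice, controls included, were LepRb-Cre/Cre and R26-GFP:L10a/GFP:L10a, so Cre was made in LepRb cells and released the tagged ribosomal protein L10a there. Stat3KO mice were in addition Stat3-flox/flox, which removes the transcription factor STAT3 from cells with Cre, while Ctrl mice had no floxed Stat3 in their labelled genotype. Each library is a pool of 5 to 8 mice, and sex is not given. Each pool gave a library of bead-bound RNA and 1 of supernatant, the RNA left after the pull-down, so that 6 pools gave 12 libraries in 4 groups of 3: Stat3KO bead-bound, Ctrl bead-bound, Stat3KO supernatant and Ctrl supernatant.

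Microglia arise from yolk sac precursors and live in the brain tissue itself, where they survey neurons and vessels and clear debris. Csf1r, the receptor for colony stimulating factor 1 and interleukin 34, is needed for their survival. Cx3cr1 is the receptor for fractalkine, which neurons make, P2ry12 is a receptor for ADP released from damaged cells, and Tmem119 is a membrane protein used to tell microglia from blood macrophages. C1qa, C1qb and C1qc encode the chains of C1q, the protein that starts the classical complement cascade, Trem2 is a lipid-sensing receptor, and Aif1 encodes the actin-binding protein IBA1. The tag is made in LepRb cells, and the supernatant holds RNA of the other cells of the block as well. In bulk tissue, fewer cells of a type and less RNA per cell cannot be told apart.

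The 3 C1q genes lie side by side on chromosome 4 of GRCm38, all on the minus strand: C1qb (ENSMUSG00000036905) at 136880129 to 136886187, C1qc (ENSMUSG00000036896) at 136889804 to 136893065 and C1qa (ENSMUSG00000036887) at 136895917 to 136898803. Promoter windows, 250 bases before to 50 bases after the annotated start, were found in RefSeq (GRCm38.p6) for 6 of the 9 genes: Cx3cr1, P2ry12, C1qb, C1qc, Trem2 and Aif1. GAGGAA, the core of the PU box bound by the myeloid factor PU.1, was searched on both strands. It was present in 4 of these 6 windows (C1qb, C1qc, Trem2 and Aif1), against 28.3% of all 32851 windows in the same table. The STAT motif TTCNNNGAA was present in 0 of the 6, against 8.30% of all windows, and overlapped no PU box. The windows of C1qb and C1qc are shown because these neighbours encode chains of 1 protein and both hold the box. They read 5′ to 3′ on the genes' own strand, at chr4:136886151-136886450 and chr4:136892865-136893164, and the capitals mark the PU box, which reads as TTCCTC where it lies on the opposite strand.
C1qb: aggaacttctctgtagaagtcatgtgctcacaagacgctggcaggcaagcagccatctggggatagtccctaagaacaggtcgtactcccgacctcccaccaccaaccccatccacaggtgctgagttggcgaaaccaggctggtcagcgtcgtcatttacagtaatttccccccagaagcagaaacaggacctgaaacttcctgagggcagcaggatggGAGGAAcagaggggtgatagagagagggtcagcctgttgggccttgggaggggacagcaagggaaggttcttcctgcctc
C1qc: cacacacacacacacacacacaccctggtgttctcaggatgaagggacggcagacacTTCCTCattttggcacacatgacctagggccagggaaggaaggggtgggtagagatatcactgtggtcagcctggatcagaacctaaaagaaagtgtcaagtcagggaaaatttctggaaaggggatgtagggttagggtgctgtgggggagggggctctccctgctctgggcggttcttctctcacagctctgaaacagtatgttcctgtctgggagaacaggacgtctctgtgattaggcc
The box begins 30 bases upstream of the C1qb start and 193 bases upstream of the C1qc start, so its place differed between the neighbours. A match of letters is a description and not a site shown to be bound.

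The libraries held 20743217 to 41829907 counts each, and the 9 genes drew between 12 and 861 counts in any library. Levels are CPM, the counts of a library brought to a common total and scaled by TMM across the 12 libraries. Stat3, the targeted gene, averaged 141 ± 23.5 CPM on Stat3KO beads, against 166 ± 19.6 CPM on Ctrl beads (SD, n = 3 each); as counts span the whole gene, a loss of the floxed exons cannot be read from them. Lepr averaged 11.5 ± 1.86 CPM in Stat3KO bead-bound RNA against 2.30 ± 0.200 CPM in Stat3KO supernatant, and 10.7 ± 4.20 CPM in Ctrl bead-bound RNA against 2.06 ± 0.142 CPM in Ctrl supernatant. Replicate 1 stood apart from replicates 2 and 3 in several of the results that follow, and results that change without it are given both ways.

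All 9 genes were counted in every library. In Ctrl supernatant, Csf1r averaged 18.4 ± 1.72 CPM, Cx3cr1 18.3 ± 1.59 CPM and P2ry12 16.8 ± 3.77 CPM, while Aif1 averaged 3.58 ± 0.604 CPM. Long transcripts draw more reads, so genes were set against each other only per kilobase of merged exons. On that scale the order in Ctrl supernatant was C1qb (10.2 ± 1.85 CPM per kb), C1qa (8.22 ± 1.55), P2ry12 (6.61 ± 1.48), C1qc (4.20 ± 0.508), Cx3cr1 (4.05 ± 0.353), Tmem119 (3.25 ± 0.327), Csf1r (3.18 ± 0.298), Aif1 (2.33 ± 0.394) and Trem2 (0.809 ± 0.231). The ranges of the 3 libraries overlapped between C1qb and C1qa, C1qa and P2ry12, C1qc and Cx3cr1, and Tmem119 and Csf1r, so these neighbours in the order do not differ beyond their spread. By the mean, ranks below C1qc depend on which exons are counted. Per kilobase of the principal transcript, which spans 1088 bases for Trem2 against 4946 bases of merged exons, Trem2 came to 3.68 ± 1.05, Aif1 to 4.09 ± 0.690 and Tmem119 to 3.35 ± 0.337 CPM per kb. C1qc came to 6.74 ± 0.816 CPM per kb on its principal transcript, and its range of 5.79 to 7.24 then overlapped that of P2ry12 (5.55 to 8.77) and lay wholly above that of Cx3cr1 (3.79 to 4.46).

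**Figure D1:**
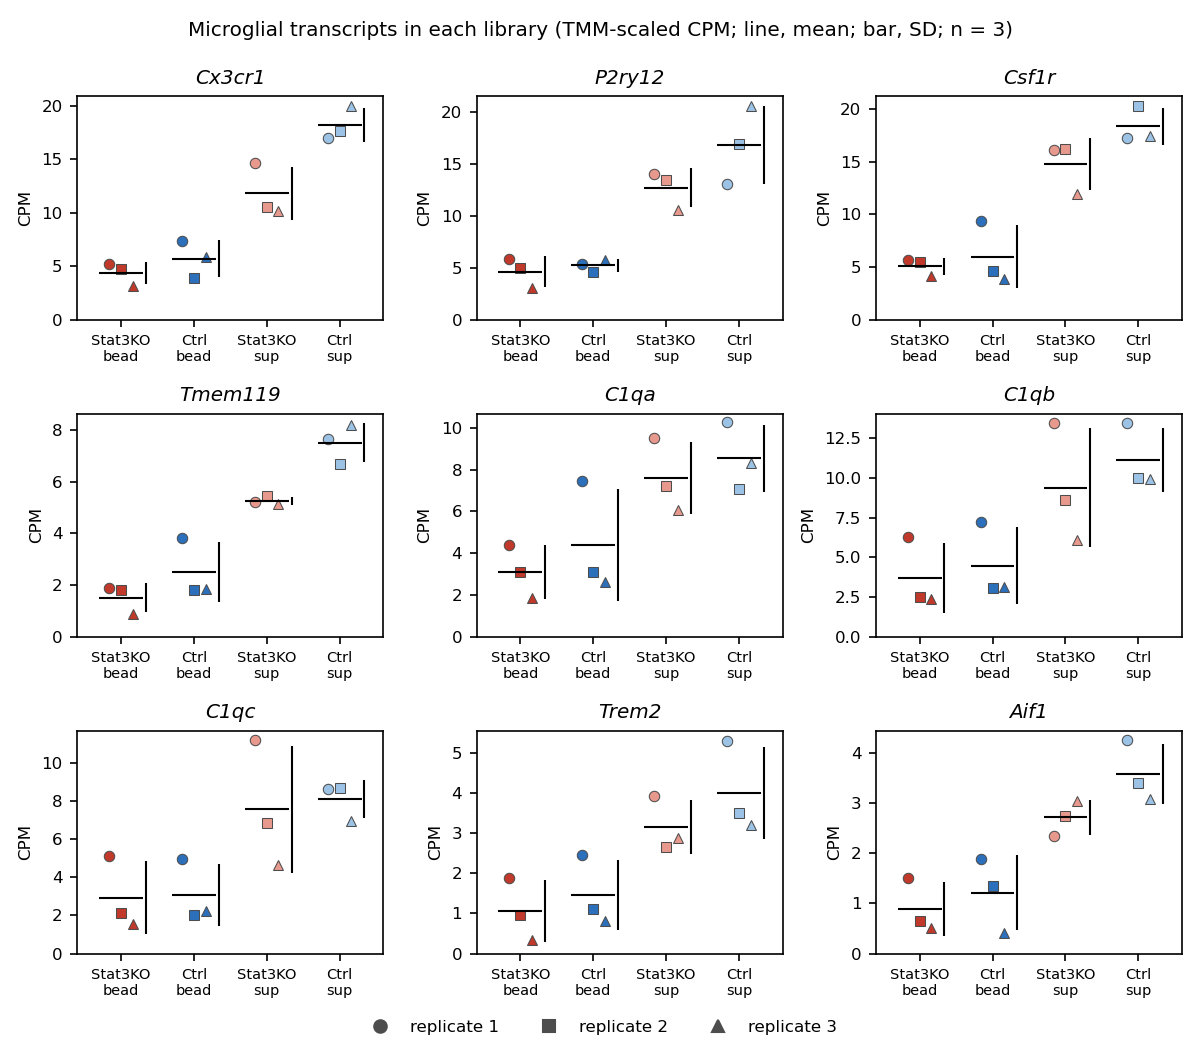
TMM-scaled CPM of each of the 9 genes by group on the horizontal axis, with 1 symbol per replicate, a line at the mean and a bar for the SD (n = 3). Every gene was lower in the bead-bound groups on the left than in the supernatant groups on the right by its mean, for example Cx3cr1 at 4.36 and 5.68 against 11.8 and 18.3 CPM.

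The comparison of bead-bound RNA with supernatant asks whether the relative level of microglial RNA differed between the pull-down from LepRb cells and the RNA left after it. In Stat3KO, all 9 genes were called lower in bead-bound RNA, where 17.3% of the 18107 genes tested were called lower (edgeR quasi-likelihood test, Benjamini-Hochberg adjusted p under 0.05). In Ctrl, 8 of the 9 were called lower, against 21.2% of the 18036 genes tested, and the exception was C1qa. Without replicate 1 of every group, 9 were called lower in each genotype, where 23.0% of all genes tested were called lower in Stat3KO and 26.0% in Ctrl. The median log2 fold change of the 9 was -1.47 in Stat3KO and -1.59 in Ctrl, beside -0.022 and -0.0068 for all genes tested.

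Among the receptors and surface proteins, Cx3cr1 (ENSMUSG00000052336, chromosome 9, 119901616 to 120069879) had 5.22, 4.70 and 3.17 CPM on beads in Stat3KO pools 1, 2 and 3, against 14.7, 10.6 and 10.2 CPM in their supernatant. The Ctrl pools had 7.34, 3.88 and 5.84 CPM of Cx3cr1 on beads, against 17.0, 17.7 and 20.1 CPM in supernatant. Every bead-bound library lay under every supernatant library, and the log2 fold changes of the fractalkine receptor were -1.45 (SE 0.230, adjusted p = 0.00228) in Stat3KO and -1.68 (SE 0.224, adjusted p = 0.000989) in Ctrl. P2ry12 (ENSMUSG00000036353, chromosome 3, 59216272 to 59262871) had 5.85, 4.99 and 3.00 CPM on beads in the Stat3KO pools, against 14.0, 13.5 and 10.5 CPM in their supernatant. For P2ry12 the Ctrl pools had 5.34, 4.55 and 5.76 CPM on beads, against 13.01, 16.9 and 20.6 CPM in supernatant. The groups did not overlap in either genotype, and the log2 fold changes of this ADP receptor were -1.47 (SE 0.245, adjusted p = 0.00273) in Stat3KO and -1.69 (SE 0.195, adjusted p = 0.000573) in Ctrl.

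Csf1r (ENSMUSG00000024621, chromosome 18, 61100598 to 61132149) had 5.63, 5.43 and 4.15 CPM on beads in the Stat3KO pools, against 16.2, 16.2 and 12.0 CPM in their supernatant. For Csf1r the Ctrl pools had 9.38, 4.58 and 3.87 CPM on beads, against 17.3, 20.3 and 17.5 CPM in supernatant. Ctrl bead-bound replicate 1 was high for this growth factor receptor, yet the fractions did not overlap, and the log2 fold changes were -1.56 (SE 0.191, adjusted p = 0.000678) in Stat3KO and -1.63 (SE 0.312, adjusted p = 0.00437) in Ctrl. Tmem119 (ENSMUSG00000054675, chromosome 5, 113793729 to 113800516) had 1.89, 1.78 and 0.858 CPM on beads in the Stat3KO pools, against 5.20, 5.43 and 5.14 CPM in their supernatant. For Tmem119 the Ctrl pools had 3.84, 1.79 and 1.86 CPM on beads, against 7.65, 6.70 and 8.19 CPM in supernatant. Its log2 fold changes were -1.81 (SE 0.289, adjusted p = 0.00232) in Stat3KO, the lowest of the 9 there, and -1.60 (SE 0.303, adjusted p = 0.00420) in Ctrl. Csf1r shares 873 exon bases with Hmgxb3 on the opposite strand, P2ry12 shares 9 with Med12l and Cx3cr1 shares 78 with Gm33858. Nothing in the labels says that the kit marks the strand, and reads in those stretches cannot be told apart.

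The C1q genes were lower on beads too, with overlap between fractions where replicate 1 was high. C1qa had 4.40, 3.07 and 1.83 CPM on beads in the Stat3KO pools, against 9.51, 7.20 and 6.08 CPM in their supernatant, with a log2 fold change of -1.31 (SE 0.307, adjusted p = 0.0117). For C1qa the Ctrl pools had 7.46, 3.11 and 2.61 CPM on beads, against 10.3, 7.07 and 8.31 CPM in supernatant. Bead-bound replicate 1 overlapped the supernatant range there, and C1qa missed the threshold in Ctrl at a log2 fold change of -0.96 (SE 0.380, adjusted p = 0.0715). It passed with the pool as a replicate block (-1.09, adjusted p = 0.00187) and without Ctrl bead-bound replicate 1 (adjusted p = 0.000295). Of 14 alternative fits, 8 called C1qa in Ctrl. In the others the edgeR adjusted p rose to as much as 0.204, and the weakest log2 fold change of the 14 was -0.67. With the block 9 of the 9 genes were called lower in each genotype, beside 26.0% of all genes tested in Stat3KO and 29.0% in Ctrl.

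C1qb had 6.26, 2.49 and 2.34 CPM on beads in the Stat3KO pools, against 13.5, 8.59 and 6.08 CPM in their supernatant. For C1qb the Ctrl pools had 7.25, 3.04 and 3.09 CPM on beads, against 13.5, 9.99 and 9.95 CPM in supernatant. Replicate 1 was the highest of every group, the Stat3KO fractions overlapped across pools, and the log2 fold changes were -1.37 (SE 0.405, adjusted p = 0.0296) in Stat3KO and -1.32 (SE 0.342, adjusted p = 0.0153) in Ctrl. C1qc had 5.12, 2.15 and 1.54 CPM on beads in the Stat3KO pools, against 11.2, 6.86 and 4.66 CPM in their supernatant. For C1qc the Ctrl pools had 4.96, 2.02 and 2.23 CPM on beads, against 8.63, 8.71 and 6.97 CPM in supernatant. As for C1qb, bead-bound replicate 1 of Stat3KO overlapped the supernatant range, and the log2 fold changes were -1.39 (SE 0.445, adjusted p = 0.0393) in Stat3KO and -1.41 (SE 0.335, adjusted p = 0.0108) in Ctrl. In Stat3KO both calls were lost when bead-bound replicate 2 or 3 or supernatant replicate 1 or 2 was removed; the adjusted p was then 0.0682 to 0.101 for C1qb and 0.0832 to 0.136 for C1qc. In Ctrl the call on C1qb was lost without bead-bound replicate 2 (adjusted p = 0.0560). The fits without single libraries did not pair the fractions of a pool. With the pool as a replicate block and all libraries kept, both genes were called lower in each genotype.

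Trem2 (ENSMUSG00000023992, chromosome 17, 48346401 to 48354147) had 1.89, 0.971 and 0.343 CPM on beads in the Stat3KO pools, against 3.93, 2.66 and 2.88 CPM in their supernatant. For Trem2 the Ctrl pools had 2.46, 1.12 and 0.807 CPM on beads, against 5.31, 3.50 and 3.20 CPM in supernatant. The fractions did not overlap in either genotype, and the log2 fold changes were -1.59 (SE 0.476, adjusted p = 0.0307) in Stat3KO and -1.46 (SE 0.413, adjusted p = 0.0215) in Ctrl. Aif1 (ENSMUSG00000024397, chromosome 17, 35170991 to 35176068) had 1.51, 0.656 and 0.515 CPM on beads in the Stat3KO pools, against 2.35, 2.75 and 3.04 CPM in their supernatant. For Aif1 the Ctrl pools had 1.88, 1.35 and 0.404 CPM on beads, against 4.25, 3.40 and 3.08 CPM in supernatant. The IBA1 gene showed no overlap between fractions either, at log2 fold changes of -1.62 (SE 0.386, adjusted p = 0.0124) in Stat3KO and -1.59 (SE 0.457, adjusted p = 0.0233) in Ctrl. In Stat3KO the call on Trem2 was lost when bead-bound replicate 2 or 3, or any supernatant replicate, was left out (adjusted p of 0.0517 to 0.0873). In Ctrl it was lost without bead-bound replicate 2 or 3 or supernatant replicate 1 (0.0528 to 0.0772), and that on Aif1 without bead-bound replicate 2 or supernatant replicate 1 or 2 (0.0559 to 0.0624). Fractions did not overlap for 7 of the 9 genes in Stat3KO, where 25% of all genes tested lay wholly lower, and for 8 of the 9 in Ctrl, where 28% did.

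Because both fractions of a pool come from the same mice, bead-bound levels were also expressed as a percentage of the same pool's supernatant. All 54 of the 54 pairs of gene and pool lay under 100%. Of the 19122 genes tested in the fit of 12 libraries, 30.3% were lower in bead-bound RNA in all 6 pools. The summed CPM of the 9 genes in bead-bound RNA came to 41.7%, 35.6% and 29.3% of supernatant in Stat3KO pools 1, 2 and 3, and to 51.5%, 27.0% and 27.1% in Ctrl pools 1, 2 and 3. By this percentage pool 1 was highest in both genotypes. Each level is relative to the total of its own library, so the percentage is not the share of RNA pulled down. Within a pool the genes differed: in Ctrl pool 1 they ran from 41.0% for P2ry12 to 72.7% for C1qa, and in Stat3KO pool 3 from 11.9% for Trem2 to 38.5% for C1qb.

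**Figure D2:**
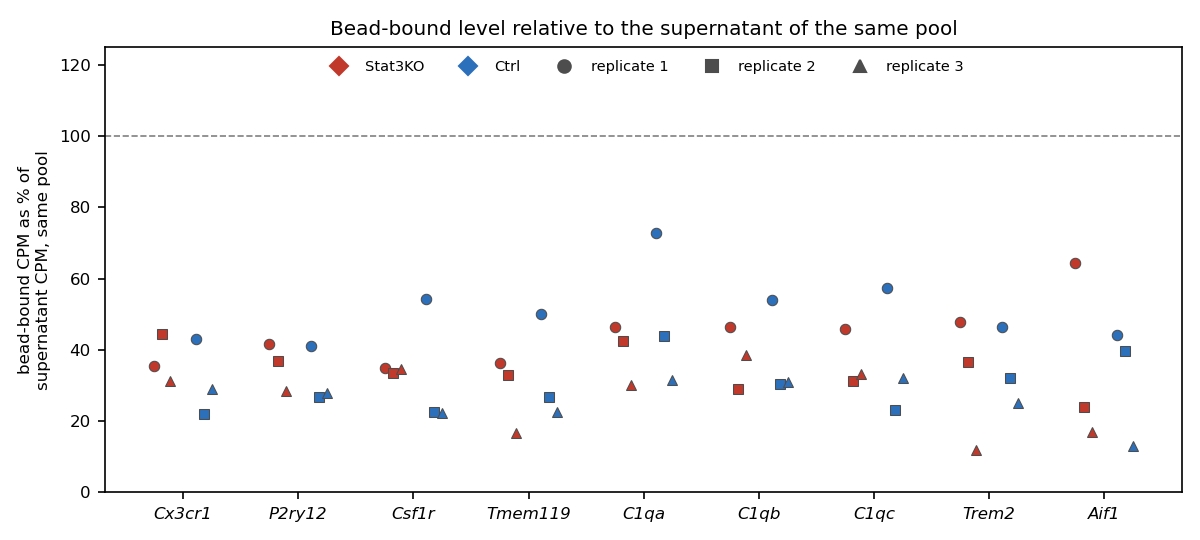
Bead-bound CPM of each gene as a percentage of supernatant CPM in the same pool, with Stat3KO left of Ctrl, 1 symbol per pool and a dashed line at 100%. All 54 values lie under 100%, from 11.9% for Trem2 in Stat3KO pool 3 to 72.7% for C1qa in Ctrl pool 1.

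Replicate 1 held the highest bead-bound level for 9 of the 9 genes in Stat3KO and for 8 of the 9 in Ctrl, P2ry12 being the exception. As a percentage of supernatant, the summed oligodendrocyte genes were also highest in pool 1, at 48.2%, 39.1% and 36.7% in Stat3KO and 54.7%, 29.3% and 32.0% in Ctrl. Astrocyte genes came to 67.7%, 54.4% and 53.5% in Stat3KO and to 76.7%, 50.0% and 48.7% in Ctrl. Neuronal genes were highest in pool 1 too, at 125.3%, 95.5% and 102% in Stat3KO and 121%, 112% and 109% in Ctrl, whereas endothelial genes were lowest there, at 86.5%, 449% and 389% in Stat3KO and 217%, 241% and 407% in Ctrl. The bead-bound level as a percentage of supernatant thus varied between pools for neuronal and endothelial as well as glial genes. The part of this variation in the comparison of genotypes in bead-bound RNA was not tested.

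Most genes of other glia were also called lower on beads: 10 of 10 oligodendrocyte genes in each genotype, 10 of 10 astrocyte genes in Stat3KO and 8 of 10 in Ctrl, and 4 of 7 genes of oligodendrocyte precursors in each. Of all genes tested, 17.3% were called lower and 14.7% higher in Stat3KO, and 21.2% lower and 20.7% higher in Ctrl. C1ql1, a precursor gene, was higher on beads in all 6 pools, at 113% to 170% of supernatant, and was called higher in Ctrl (0.64, adjusted p = 0.0152) but not in Stat3KO (0.50, adjusted p = 0.159). Median log2 fold changes of bead-bound over supernatant RNA in Stat3KO and in Ctrl were -1.27 and -1.44 for 10 oligodendrocyte genes, -1.004 and -1.18 for 10 astrocyte genes, and -1.17 and -1.40 for 7 genes of oligodendrocyte precursors. Neuronal genes had medians of 0.29 and 0.43 (10 genes), endothelial genes 1.84 and 1.77 (10 genes) and LepRb cell genes 3.84 and 4.18 (6 genes, all called higher in both genotypes), while 5 blood cell genes had -1.11 and -0.95. The neuronal genes were split, with 3 called higher and 1 lower in Stat3KO and 5 higher and 1 lower in Ctrl. The lower one was Map2 in both genotypes, at 38.2% to 60.9% of supernatant over the 6 pools. Of the endothelial genes 6 were called higher in Stat3KO and 9 in Ctrl, and 0 lower. Of the blood cell genes 5 were called lower in Stat3KO and 4 in Ctrl. The border macrophages of the meninges and vessels share many microglial transcripts, and of their 8 marker genes 6 were tested, with medians of -0.31 and -0.83. Their summed level was 6.35 to 10.9 CPM in Stat3KO, against 6.05 to 8.42 CPM in Ctrl bead-bound RNA, and 8.85 to 12.4 CPM in Stat3KO, against 9.62 to 10.7 CPM in Ctrl supernatant. Only Ms4a7 among them was at 0 in any library. Among the 6 tested, 3 had a log2 fold change below 0 in Stat3KO and 5 in Ctrl, so the list was split. In Stat3KO 2 lay wholly lower on beads and 1 wholly higher, and in Ctrl 3 lower and 0 higher. The genes called were all lower. In Stat3KO Cbr2 fell by 1.72 (adjusted p = 0.0178) on beads. F13a1, a coagulation factor subunit of macrophages, fell there by 1.29 (adjusted p = 0.00387). In Ctrl F13a1 alone passed, having fallen by 0.90 (adjusted p = 0.0347). Of 8 genes of blood monocytes and neutrophils, only 3 were tested in Stat3KO and 4 in Ctrl, and 6 were at 0 in at least 1 library. They summed to 6.66 to 9.12 CPM in Stat3KO, against 9.81 to 10.8 CPM in Ctrl bead-bound RNA, and to 6.72 to 7.72 CPM in Stat3KO, against 8.26 to 8.63 CPM in Ctrl supernatant. The genotypes did not overlap in these sums, most of which was Cd44, an adhesion receptor that is not specific to blood cells. Cd44 was called higher on beads in Ctrl by edgeR, but not in Stat3KO. In a split made after the values were seen, Cd44 had 6.26 to 8.68 CPM in Stat3KO, against 8.17 to 10.6 CPM in Ctrl bead-bound RNA, and 5.10 to 6.46 CPM in Stat3KO, against 5.13 to 6.97 CPM in Ctrl supernatant. The other 7 genes summed to 0.315 to 0.440 CPM in Stat3KO, against 0.161 to 1.79 CPM in Ctrl bead-bound RNA, and to 1.26 to 1.62 CPM in Stat3KO, against 1.31 to 3.496 CPM in Ctrl supernatant, so the genotypes overlapped for both pieces. Their part in the genotype values of the 9 genes was not tested.

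**Figure D3:**
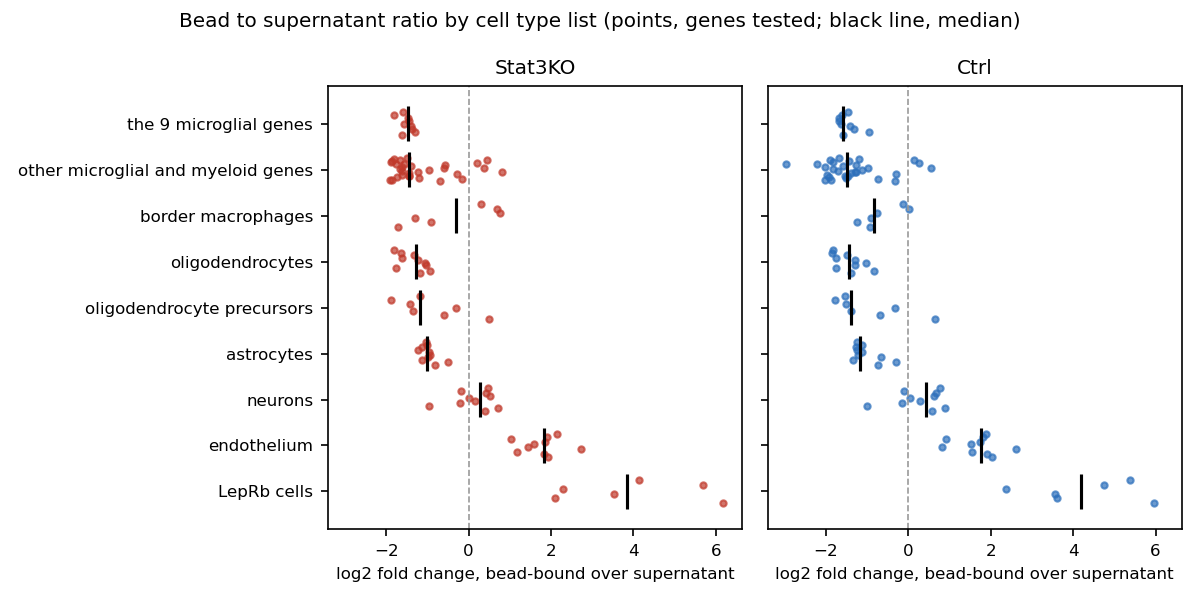
Log2 fold change of bead-bound over supernatant RNA for each tested gene of each list, in Stat3KO on the left and Ctrl on the right, with a black line at each list's median. The 9 microglial genes, with medians of -1.47 and -1.59, lie on the side of the oligodendrocyte and astrocyte genes, and LepRb cell genes lie at medians of 3.84 and 4.18.

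A list of 30 other microglial and myeloid genes went the same way for most of its members. In Stat3KO 19 were called lower and 1 higher in bead-bound RNA, with a median of -1.45, where 17.3% of all genes tested were called lower and 14.7% higher. In Ctrl 23 were called lower and 2 higher, with a median of -1.49, where 21.2% of all genes were called lower and 20.7% higher. Sall1, a transcription factor of microglial identity, fell by 1.89 (SE 0.181, adjusted p = 0.000204) in Stat3KO and by 1.82 (SE 0.189, adjusted p = 0.000378) in Ctrl. P2ry13, a neighbour and relative of P2ry12, fell by 1.77 (adjusted p = 0.00179) in Stat3KO and by 2.22 (adjusted p = 0.000348) in Ctrl. Spi1, which encodes PU.1, fell by 1.80 (adjusted p = 0.00296) in Stat3KO and by 1.19 (adjusted p = 0.0341) in Ctrl. Ptprc, the pan-leukocyte antigen CD45, fell by 1.57 (adjusted p = 0.00519) in Stat3KO and by 2.96 (adjusted p = 0.00209) in Ctrl. The exceptions were Irf8 in Stat3KO, and in Ctrl Lgmn, a lysosomal protease (0.54, adjusted p = 0.0166), and Rgs10, a regulator of G protein signalling (0.26, adjusted p = 0.0388).

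The comparison of genotypes in supernatant asks whether microglial RNA of the hypothalamus differed in mice without STAT3 in LepRb cells. By edgeR 0 of the 9 genes were called, where 0.0108% of the 18547 genes tested were called, and DESeq2 and limma-voom also called 0. At an unadjusted p under 0.05 there were 3 (Cx3cr1, Tmem119 and P2ry12), against 6.2% of all genes tested. All 9 log2 fold changes were negative, as were 50.7% of all genes tested, with a median of -0.33. The 3 Stat3KO libraries lay wholly under the 3 Ctrl libraries for 4 of the 9 genes (Cx3cr1, Tmem119, Csf1r and Aif1), against 6.25% of all genes.

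Cx3cr1 averaged 11.8 ± 2.51 CPM in Stat3KO, against 18.3 ± 1.59 CPM in Ctrl supernatant (SD, n = 3 each), a log2 fold change of -0.63 (SE 0.159, 95% interval -0.98 to -0.29). It did not pass the adjustment over all genes (adjusted p = 0.483). Stat3KO replicate 1, at 14.7 CPM, lay nearest to the Ctrl range. Without that library the value was -0.83 with an adjusted p of 0.0389, and without a filter on low counts -0.63 with an adjusted p of 0.00697. Without replicate 1 of both groups it was -0.88 (adjusted p = 0.00211), and P2ry12 then also passed (-0.64, adjusted p = 0.0216), in a fit that called 5.29% of all genes tested.

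Tmem119 averaged 5.25 ± 0.153 CPM in Stat3KO, against 7.51 ± 0.756 CPM in Ctrl supernatant (log2 fold change -0.52, SE 0.151, adjusted p = 0.570). P2ry12 averaged 12.7 ± 1.88 CPM in Stat3KO, against 16.8 ± 3.77 CPM in Ctrl (-0.42, SE 0.175, adjusted p = 0.780), with overlapping libraries. Csf1r averaged 14.8 ± 2.44 CPM in Stat3KO, against 18.4 ± 1.72 CPM in Ctrl (-0.32, SE 0.145, adjusted p = 0.804). C1qa averaged 7.60 ± 1.75 CPM in Stat3KO, against 8.55 ± 1.61 CPM in Ctrl (-0.16, SE 0.195), C1qb 9.38 ± 3.75 against 11.1 ± 2.01 CPM in the same groups (-0.23, SE 0.244), and C1qc 7.57 ± 3.33 against 8.10 ± 0.981 CPM (-0.088, SE 0.258). Their adjusted p-values were 0.923, 0.910 and 0.966, and C1qc turned positive (0.15) without Stat3KO supernatant replicate 3. Trem2 averaged 3.16 ± 0.682 CPM in Stat3KO, against 4.00 ± 1.14 CPM in Ctrl (-0.33, SE 0.239, adjusted p = 0.878), and Aif1 2.71 ± 0.350 CPM in Stat3KO, against 3.58 ± 0.604 CPM in Ctrl (-0.40, SE 0.202, adjusted p = 0.821). The 95% interval ran from 55.8% to 103% of the Ctrl level for Aif1 and from 63.6% to 139% for C1qc, so differences of that size in C1qc were not detectable with 3 pools a group.

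The sum of the 9 genes was 90.6, 73.7 and 60.6 CPM in Stat3KO supernatant, against 96.9, 94.3 and 97.8 CPM in Ctrl supernatant. All 3 Stat3KO pools were lower than all 3 Ctrl pools, and the Stat3KO pools were spread more widely. Sums over genes of other glia are given beside it, and 0 of these genes were called, where 0.0108% of all genes tested were called. The sum of the oligodendrocyte genes was 4788 to 5422 CPM in Stat3KO, against 5759 to 7305 CPM in Ctrl supernatant, with 10 of its 10 log2 fold changes below 0 and a median of -0.51. Astrocyte genes summed to 1671 to 1935 CPM in Stat3KO, against 1891 to 1969 CPM in Ctrl, and genes of oligodendrocyte precursors to 185 to 220 CPM in Stat3KO, against 213 to 257 CPM in Ctrl, with overlap between genotypes for both, while neuronal genes summed to 8868 to 9113 CPM in Stat3KO, against 7975 to 9077 CPM in Ctrl. Log2 fold changes were below 0 for 8 of 10 astrocyte genes, 7 of 7 precursor genes and 4 of 10 neuronal genes, beside 50.7% of all genes tested. No defining marker of these glial lists was at 0 in any library. Their part in the microglial values was not tested.

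Of the 30 other microglial and myeloid genes, 28 had a negative log2 fold change in supernatant, with a median of -0.29, 10 had Stat3KO libraries wholly under the Ctrl libraries and 0 were called. Of all genes tested, 50.7% were negative, 6.25% lay wholly under and 0.0108% were called. Fcrls, an Fc receptor-like marker of microglia, was at 1.29, 1.71 and 1.42 CPM in Stat3KO, against at 2.83, 2.52 and 2.82 CPM in Ctrl supernatant (-0.89, SE 0.216, adjusted p = 0.483). P2ry13 had a value of -0.62 (SE 0.182, adjusted p = 0.570) and Olfml3, a secreted protein of microglia, -0.60 (SE 0.176, adjusted p = 0.570). These 3 were named after their values were seen. Spi1 had a value of -0.0013 (SE 0.228), with 2.51 ± 0.603 CPM in Stat3KO, against 2.49 ± 0.262 CPM in Ctrl.

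In bead-bound RNA 0 of the 9 genes were called between genotypes, where 0.449% of the 17354 genes tested were called, and DESeq2 and limma-voom also called 0. At an unadjusted p under 0.05 there were 0, against 4.11% of all genes. All 9 log2 fold changes were negative, as were 51.7% of all genes tested, from -0.71 (Tmem119) to -0.054 (C1qc), with a median of -0.38, and every gene's adjusted p was 0.999. The groups overlapped for all 9. Tmem119 averaged 1.51 ± 0.567 CPM in Stat3KO, against 2.496 ± 1.16 CPM in Ctrl, and Cx3cr1 4.36 ± 1.06 CPM in Stat3KO, against 5.68 ± 1.73 CPM in Ctrl, with a 95% interval for Cx3cr1 from 49.6% to 120% of the Ctrl level. The sum of the 9 was 37.8, 26.2 and 17.8 CPM in Stat3KO, against 49.9, 25.4 and 26.5 CPM in Ctrl bead-bound RNA. Ctrl replicate 1 alone was above every Stat3KO library, and without it the values of 6 genes were positive: Csf1r 0.26, C1qa 0.12, C1qb 0.26, C1qc 0.46, Trem2 0.14 and Aif1 0.032. That fit kept Stat3KO replicate 1, the highest Stat3KO bead-bound library for 9 of the 9 genes. Without replicate 1 of both groups, only Csf1r of those 6 was positive. In replicates 2 and 3 C1qb had 2.49 and 2.34 CPM in Stat3KO, against 3.04 and 3.09 CPM in Ctrl, and the genotypes overlapped for the rest of the 6. The direction of those 6 thus depended on which replicate 1 libraries were kept.

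**Figure D4:**
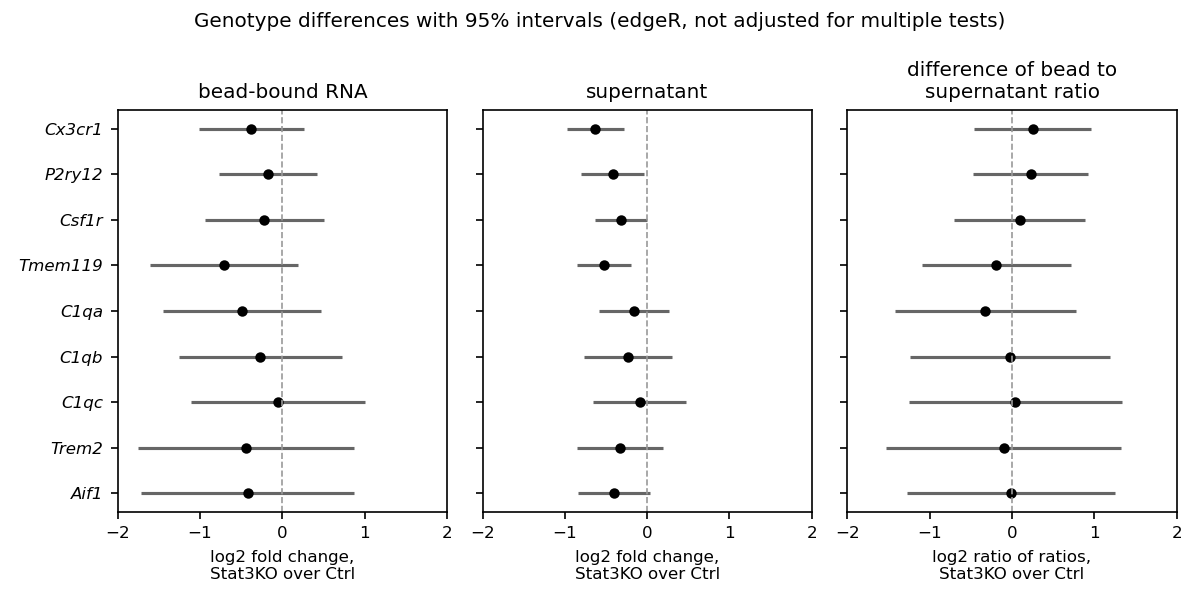
Log2 fold change of Stat3KO over Ctrl for each gene with its unadjusted 95% interval, in bead-bound RNA (left) and supernatant (middle), and of the Stat3KO over the Ctrl bead to supernatant ratio (right). Points on the left and in the middle all lie below 0, and of all intervals only those of Cx3cr1 (-0.98 to -0.29), Tmem119 and P2ry12 in supernatant do not cross 0.

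Whether the bead to supernatant ratio differed between Stat3KO and Ctrl was tested as an interaction over the 12 libraries. By edgeR 0 of the 9 genes were called, where 0.204% of the 19122 genes tested were called, with 0 at an unadjusted p under 0.05 against 2.12% of all genes; DESeq2 and limma-voom called 0 as well. The values ran from -0.32 (C1qa, SE 0.515) to 0.25 (Cx3cr1, SE 0.331), 5 being negative and 4 positive, and every adjusted p rounded to 1.00. The intervals were wide, from 72.8% to 194% for Cx3cr1 and from 34.7% to 250% for Trem2, expressed as the Stat3KO ratio relative to the Ctrl ratio.

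Ligands of the microglial receptors were not called lower on beads. Csf1, a ligand of Csf1r, averaged 22.4 ± 5.07 CPM in Stat3KO bead-bound RNA against 18.6 ± 2.61 CPM in Stat3KO supernatant, and 21.3 ± 2.39 CPM in Ctrl bead-bound RNA against 20.6 ± 1.82 CPM in Ctrl supernatant (log2 fold changes 0.25 and 0.052, adjusted p = 0.329 and 0.768). Il34, the neuronal ligand of the same receptor, averaged 22.6 ± 4.75 CPM in Stat3KO bead-bound RNA against 16.4 ± 1.95 CPM in Stat3KO supernatant, and 26.3 ± 3.63 CPM in Ctrl bead-bound RNA against 19.8 ± 0.574 CPM in Ctrl supernatant. It was called higher on beads in Ctrl (0.42, adjusted p = 0.0348) and missed the threshold in Stat3KO (0.45, adjusted p = 0.0731). Cx3cl1, which encodes fractalkine, averaged 232 ± 61.7 CPM in Stat3KO bead-bound RNA against 220 ± 23.1 CPM in Stat3KO supernatant, and 288 ± 15.3 CPM in Ctrl bead-bound RNA against 262 ± 31.8 CPM in Ctrl supernatant, and was not called (0.068 and 0.14, adjusted p = 0.805 and 0.367). Tgfb1, a factor that maintains microglial identity, averaged 1.54 ± 0.199 CPM in Stat3KO bead-bound RNA against 2.20 ± 0.304 CPM in Stat3KO supernatant and was not called in either genotype (-0.52 and -0.67, adjusted p = 0.136 and 0.0890). Tyrobp, the signalling adaptor of Trem2, was depleted as the receptor was: 1.30 ± 0.379 CPM in Stat3KO bead-bound RNA against 3.61 ± 0.0672 CPM in Stat3KO supernatant (-1.48, adjusted p = 0.00349), and 1.43 ± 1.12 CPM in Ctrl bead-bound RNA against 4.47 ± 0.880 CPM in Ctrl supernatant (-1.68, adjusted p = 0.0217). Of the 12 ligands and partners, 4 were called lower and 0 higher in Stat3KO, and 4 lower and 1 higher in Ctrl, where the shares of all genes tested were 17.3% lower and 14.7% higher in Stat3KO and 21.2% lower and 20.7% higher in Ctrl. None of the 12 was called between genotypes in either fraction, by edgeR. Of all genes tested, 0.449% were called between genotypes in bead-bound RNA and 0.0108% in supernatant.

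Of 13 complement partners 11 were tested on beads against supernatant in Stat3KO, with 1 called lower and 1 higher, and 10 in Ctrl, with 1 lower and 3 higher. At this list size these counts are near the shares of all genes called, 17.3% lower and 14.7% higher in Stat3KO and 21.2% lower and 20.7% higher in Ctrl. Itgam, a chain of complement receptor 3 carried by microglia, fell by 1.62 (adjusted p = 0.0247) in Stat3KO and by 1.70 (adjusted p = 0.00410) in Ctrl. C1ra, a protease that C1q activates, was higher on beads in Stat3KO (2.08, adjusted p = 0.0179), on 25, 23 and 17 counts in bead-bound RNA against 3, 11 and 2 in supernatant. In Ctrl C3, the central complement component, was higher on beads (0.73, adjusted p = 0.0433), as were Calr, the chaperone calreticulin (0.70, adjusted p = 0.00958), and Cd93, an endothelial surface receptor (2.17, adjusted p = 0.00277). Of 12 genes that rise in activated microglia 9 were tested, beside the same shares of all genes called (17.3% lower and 14.7% higher in Stat3KO, 21.2% and 20.7% in Ctrl). In Stat3KO 4 were lower on beads, with Cd9 at -1.13 (adjusted p = 0.00417) and Apoe, the lipid carrier that astrocytes also make, at -1.08 (adjusted p = 0.0163), and 1 was higher, the lysosomal protease gene Ctsd (0.56, adjusted p = 0.0488). In Ctrl 4 were lower, with Cd9 at -1.27 (adjusted p = 0.00282) and the receptor tyrosine kinase Axl at -1.13 (adjusted p = 0.00171), and 2 were higher, Ctsd (0.64, adjusted p = 0.00246) and Ctsb (0.60, adjusted p = 0.00685). By edgeR 0 of these genes were called between genotypes in either fraction, beside 0.449% of all genes tested in bead-bound RNA and 0.0108% in supernatant.

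Genes whose profile was nearest to the mean profile of the 9 were sought among 14880 others with a mean of at least 1 CPM, as the mean absolute difference of centred log2 CPM. Over the 12 libraries the 10 nearest were S100a16, Olig2, Litaf, Efhd1, Gjb1, Selplg, S100b, Pdlim2, Tmbim1 and Siglech, at differences of 0.146 to 0.176, beside 0.170 to 0.287 for the 9 genes themselves and a median of 0.831 over all. Selplg, a selectin ligand of leukocytes and microglia, and Siglech, a sialic acid receptor of microglia, stand in the list of other microglial genes. Olig2 and Gjb1 are known from oligodendrocytes and S100b from astrocytes, so genes of other glia were among those nearest in profile. Over the 6 supernatant libraries the nearest were Bcan, Mthfs, Slc30a3, Sema5b, Fcgrt, Cldn10, Galc, Glb1l, Asphd1 and Lix1, at 0.0240 to 0.0552, beside 0.122 to 0.207 for the 9 genes and a median of 0.244, and none of these stands in the microglial lists.

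The C1q genes and the receptors did not keep a fixed ratio between pools, a contrast chosen after the values were seen. The summed CPM of C1qa, C1qb and C1qc over that of Cx3cr1 and P2ry12 was 1.43, 0.797 and 0.926 in replicates 1, 2 and 3 of Stat3KO bead-bound RNA, against 1.55, 0.970 and 0.684 in Ctrl bead-bound RNA. It was 1.19, 0.942 and 0.811 in Stat3KO supernatant, against 1.08, 0.745 and 0.621 in Ctrl supernatant. Replicate 1 had the highest ratio in all 4 groups, and the genotypes overlapped in both fractions.

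**Figure D5:**
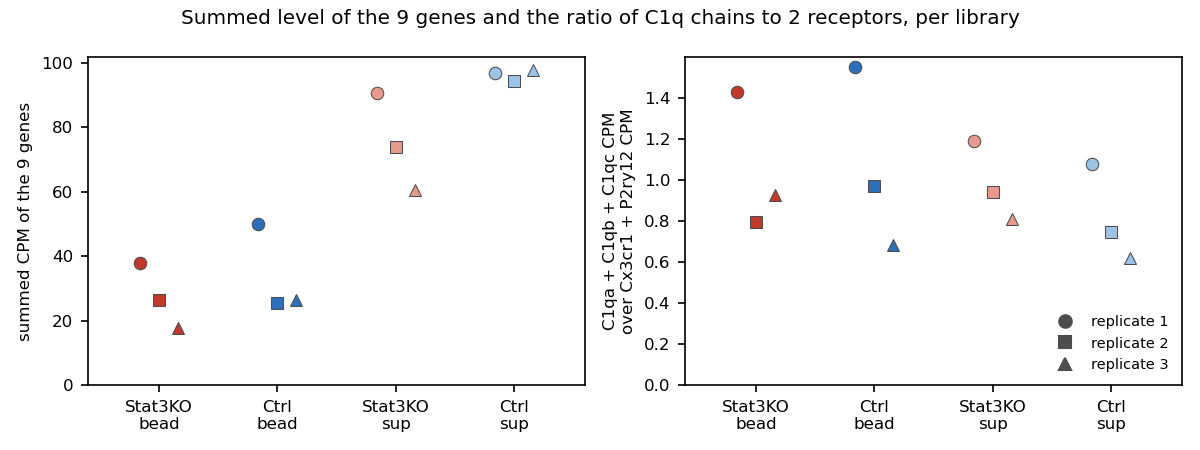
Left, the summed CPM of the 9 genes in each library. Right, the ratio of summed C1qa, C1qb and C1qc to summed Cx3cr1 and P2ry12; replicate 1 lies highest in every group, from 1.08 in Ctrl supernatant to 1.55 in Ctrl bead-bound RNA.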

How the data were processed

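RNA of 12 libraries (3 pools of mice, 2 genotypes, 2 fractions) was read on an Illumina sequencer after TruSeq mRNA preparation, per the labels' protocols. The authors deposited whole-number read counts of each gene, not normalised, in a table with a column for every library. The submitters' processing notes name STAR 2.5.3a and the build mm10; how reads were counted, and on which annotation, is not given in the sources used here. Gene names and coordinates came from GENCODE M21 (GRCm38) and promoters from RefSeq (GRCm38.p6). All columns were mapped to samples, and 0 were left over.

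Genes were tested over the whole table with edgeR 4.0.16 in R 4.3.3: TMM, filterByExpr (minimum count 10, minimum total 15), a quasi-likelihood fit, 2-sided, with Benjamini-Hochberg adjustment over all genes tested and a threshold of 0.05. The script was tested on simulated counts with known changes. Each of the 4 comparisons of 2 groups used its own 6 libraries, and the interaction all 12. Only the fits with the pool as a replicate block paired the fractions of a pool. CPM are TMM-scaled, with the SD over 3 libraries. The SE of a log2 fold change is its size over the square root of F. DESeq2 1.42.0, limma-voom (limma 3.58.1), RLE and library-total scaling, no filter, all 12 libraries in 1 fit, a replicate block, leaving out each library and leaving out replicate 1 of every group were the alternatives.

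Bead-bound and supernatant libraries of 1 number come from 1 pool, per the series' design text, and their deviations from the group means correlated at 0.196 to 0.367. Within a group each library comes from a separate pool of mice, and no 2 of them agreed within sampling noise (chi-square per gene 5.91 to 75.5). There are no molecular identifiers, and depth covers counting error only. No batch, lane or date is given for single libraries. The 4 comparisons share libraries. The 9 genes, the lists, the tests and the rule for naming genes (the 9, list members that passed the test, 5 named ligands and partners with Spi1, and the 10 nearest profiles) were chosen with earlier results of these data known. Not every list member that passed is named. A gene of these lists is counted in them but not reported by name here.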

Additional observations from a re-analysis of the deposited data

Results flagged for a closer look

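Irf8, a transcription factor of microglia and macrophages that interferon signalling also induces, moved in opposite directions between the fractions of the 2 genotypes. The Stat3KO pools had 9.27, 6.51 and 6.49 CPM on beads, against 3.96, 4.02 and 4.70 CPM in supernatant (log2 fold change 0.80, SE 0.202, adjusted p = 0.0156 by edgeR). The Ctrl pools had 3.34, 1.44 and 0.834 CPM on beads, against 5.13, 4.18 and 4.23 CPM in supernatant (-1.29, SE 0.437, adjusted p = 0.0428). All 3 Stat3KO pools were higher on beads and all 3 Ctrl pools lower. The difference between the ratios was 2.12 on the log2 scale (SE 0.487) and did not pass the test of the difference itself (adjusted p = 0.212). Between genotypes Irf8 had a log2 fold change of 2.02 (adjusted p = 0.127) in bead-bound RNA, without overlap, and -0.10 (adjusted p = 0.945) in supernatant.

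Serping1, which encodes the inhibitor of the C1 complex and stands in the list of complement partners, also had opposite signs between the genotypes over all 6 pools. Its bead-bound level in Ctrl pool 2 was 99.2% of supernatant, however, which is no clear direction. The Stat3KO pools had 3.93, 4.83 and 3.03 CPM on beads, against 2.57, 3.23 and 2.57 CPM in supernatant (0.48, adjusted p = 0.146). The Ctrl pools had 2.67, 2.37 and 2.39 CPM on beads, against 3.27, 2.39 and 3.75 CPM in supernatant (-0.34, adjusted p = 0.258). The difference between the ratios was 0.83 (SE 0.327) and did not pass the test of the difference itself (adjusted p = 1.00 by edgeR). By sign alone, with Ctrl pool 2 of Serping1 taken as lower, Irf8 and Serping1 were the only genes with opposite directions in all 6 pools. This was among the 9 genes and the tested genes of the lists of other microglial genes, partners, complement, activation and border macrophages.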

How the results depend on the processing

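In the comparison of bead-bound RNA with supernatant each of the 9 genes kept a negative log2 fold change in both genotypes under every alternative run. Leaving out single libraries left 6 to 9 of the 9 called in Stat3KO and 5 to 9 in Ctrl (5 without Ctrl bead-bound replicate 2), beside 9.07% to 18.6% and 14.4% to 24.4% of all genes tested called lower, the lost calls being among C1qb, C1qc and Trem2 in Stat3KO and C1qb, Trem2 and Aif1 in Ctrl. The calls over the whole table numbered 5804 in Stat3KO (2879 to 6410 without single libraries) and 7564 in Ctrl (4866 to 8813). The fit with the pool as a replicate block called 8999 in Stat3KO and, of the 9 genes, changed the call of C1qa in Ctrl only. Scaling by library totals moved the median of all genes to -0.12 in Stat3KO and -0.16 in Ctrl, and it moved the split to 1842 higher and 3716 lower in Stat3KO (2669 and 3135 with TMM) and to 2387 and 4906 in Ctrl (3735 and 3829 with TMM).

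Between genotypes in supernatant the 2 calls over the whole table became 40 with DESeq2, 203 without a filter, 4 with the replicate number as a block, 988 without replicate 1 of every group and 2 to 43 without single libraries (43 without Stat3KO replicate 1, 7 without Stat3KO replicate 3, 4 without Ctrl replicate 1). Of the 9 genes 1 was called without a filter, 2 without replicate 1 of every group and 0 to 1 without single libraries. Same-numbered pools of the 2 genotypes hold different mice, and the labels link them by number alone (r from -0.0851 to 0.141). Replicate 1 was the library furthest from the others in every group. Whether same-numbered pools were handled together is not given and was not tested. In bead-bound RNA the 78 calls became 183 without a filter, 1167 without replicate 1 of every group and 58 to 82 without single libraries. For the interaction the 39 calls became 62 with DESeq2, 97 without a filter, 59 with the pool as a replicate block and 24 to 35 without single libraries.

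Some directions between genotypes turned. Without single libraries, log2 fold changes in bead-bound RNA ran from -0.38 to 0.060 for P2ry12, -0.46 to 0.26 for Csf1r (0.16 without replicate 1 of every group), -0.82 to 0.12 for C1qa, -0.86 to 0.26 for C1qb, -0.71 to 0.46 for C1qc, -1.11 to 0.14 for Trem2 and -1.01 to 0.032 for Aif1, and in supernatant from -0.49 to 0.15 for C1qc. Interaction values ran from -0.14 to 0.57 for Csf1r, -0.38 to 0.24 for Tmem119, -0.66 to 0.27 for C1qa, -0.63 to 0.49 for C1qb, -0.62 to 0.54 for C1qc, -0.77 to 0.47 for Trem2 and -0.60 to 0.43 for Aif1. Without replicate 1 of every group the interaction was 0.035 for Tmem119 and 0.087 for C1qb. With the pool as a replicate block it was 0.011 for C1qb and 0.044 for Aif1, and Aif1 came to 0.14 with limma-voom and 0.0054 with library totals. The cause of these shifts was not tested. Levels under 1 CPM, as for Aif1 and Trem2 on beads, rest on few counts, the lowest being 12.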

Other observations

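C1ra, the complement protease gene, drew 25, 23 and 17 counts on beads of the Stat3KO pools, against 3, 1 and 2 counts on beads of the Ctrl pools. This is 0.786, 0.603 and 0.486 CPM in Stat3KO, against 0.125, 0.0321 and 0.0538 CPM in Ctrl. The groups did not overlap, but the difference did not pass (adjusted p = 0.0765 by edgeR), and the Ctrl levels rest on counts too few for a fold change. C1ra was singled out after its values were seen.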
